A study of Mus musculus with 32 samples.

Results

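Costimulatory and checkpoint molecules are surface proteins through which a macrophage or microglial cell raises or lowers the response of a lymphocyte that reads antigen on it. Cd80 and Cd86 bind Cd28 and Ctla4 on T cells, Cd274 (PD-L1) and Pdcd1lg2 (PD-L2) bind the inhibitory receptor PD-1, Cd40 receives the T-cell signal Cd40lg, and Icam1 holds the contact by binding the integrin Itgal with Itgb2. Slamf7 is a self-binding receptor of the SLAM family, and Lag3 and Havcr2 (TIM-3) are inhibitory receptors best known from exhausted T cells, of which Havcr2 is also made by microglia. Bacterial lipopolysaccharide (LPS), read by TLR4, drives many of these genes in myeloid cells through NF-kappa-B and through interferons that the cells release. These 9 genes (Cd40, Cd80, Cd86, Cd274, Pdcd1lg2, Slamf7, Lag3, Icam1 and Havcr2) were chosen by name from the 45706 genes of the deposited count table, and all 9 were found in it.

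The table held 32 RNA-sequencing libraries of BV-2, an immortalised mouse microglial line that is 1 clone and that the labels give as wild type and as a glioblastoma line. The labels also attach a mouse age to 15 of the 32 libraries (6 months to 10 and 2 months to 5), which was not used, since all are labelled as this line. All 4 VEH_scramble libraries and 1 of LPS_scramble carry the younger age and the other 3 of LPS_scramble the older one. Cells received vehicle (VEH) or LPS at 10 ng/ml for 24 h and were transfected with a scramble control or with a mimic, either of miR-146a-5p, of miR-29a-3p or of miR-7a-5p. This made 8 groups of 4 libraries, named VEH_scramble, VEH_miR-7a, VEH_miR-29a, VEH_miR-146a, LPS_scramble, LPS_miR-7a, LPS_miR-29a and LPS_miR-146a, and the study describes the 4 replicates as independent experiments. Every group, controls included, was transfected, and the sources differ on whether transfection came before or after LPS. No untransfected cells and no primary microglia were compared here, so each difference is one between transfected cultures of this line.

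A microRNA mimic is a short double-stranded RNA that loads the cell's silencing machinery and lowers transcripts that pair with its seed, bases 2 to 8. The mature sequences are shown because the members were searched for matches to them. They are from RefSeq (GRCm38.p6), 5′ to 3′, with the seed in capitals.
miR-7a-5p: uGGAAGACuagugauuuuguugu
miR-29a-3p: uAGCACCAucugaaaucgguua
miR-146a-5p: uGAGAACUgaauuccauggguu
The mature miR-7a-5p is encoded at chr7:78888295-78888317 (+ strand) and chr13:58392841-58392863 (− strand), miR-29a-3p at chr6:31062673-31062694 (− strand) and miR-146a-5p at chr11:43374435-43374456 (− strand). The 3 seeds differ. A 7-base match to a seed was found in the longest annotated 3′ untranslated region of 1 member, Cd86, for miR-146a. For miR-7a and miR-29a, 0 of the 9 members held one. Of 21024 genes with an annotated 3′ untranslated region, 11.9% held a match for miR-7a, 13.1% for miR-29a and 11.1% for miR-146a. The Cd86 match lies in its 3′ untranslated region at chr16:36604694-36604722 (GRCm38, − strand), with the match in capitals.
Cd86 and miR-146a: caacagcacagAGTTCTCagtgctggcaa

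In GRCm38, Cd40 is at chr2:165055627-165072948, Cd80 at chr16:38455561-38496335, Cd86 at chr16:36603869-36666081 and Slamf7 at chr1:171632403-171653035. Lag3 is at chr6:124904361-124911705, Icam1 at chr9:21015985-21028817 and Havcr2 at chr11:46454935-46481255. Cd274 (chr19:29367455-29388095) and Pdcd1lg2 (chr19:29410919-29471161) are neighbours 22.8 kb apart on the same strand. The RefSeq table of promoters, from 250 bases before to 50 after a start site, held 6 of the 9 members (not Cd40, Cd86 or Lag3). They were searched on both strands for the gamma-activated site TTCNNNGAA, an element of interferon-gamma responses, for GAAANNGAA, the core of the interferon-stimulated response element, and for the NF-kappa-B motif. Cd274, Icam1 and Pdcd1lg2 each held 1 match in all, shown in capitals, so no match overlapped another, and Cd80, Slamf7 and Havcr2 held 0 in these windows.
Cd274, interferon-stimulated response element core on the opposite strand, chr19:29367354-29367378: tgggtggcTTCGGTTTCacagacag
Icam1, gamma-activated site, chr9:21015890-21015914: cgcgaggtTTCCCGGAAagtggccc
Pdcd1lg2, NF-kappa-B motif, chr19:29410669-29410692: tgctgtGGGGAATCCCtggtacat
The Cd274 match lay 68 to 76 bases before the start site, the Icam1 match 34 to 42 and the Pdcd1lg2 match 235 to 244. Among all 32851 promoters of the same length, 8.30% held the gamma-activated site, 8.56% the response element core and 4.51% the NF-kappa-B motif, so a match in a member is a description and not a bound site.

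Libraries held 1207626 to 20689019 counts in all, so that 3 counts were worth 0.145 to 2.48 CPM, the count scaled for library size. LPS libraries were deeper in the mean (12712104 counts for LPS_scramble against 6127950 for VEH_scramble), and the share of counts in small structural RNA genes was 2.64% to 5.81% in LPS libraries and 3.82% to 38.8% in vehicle libraries. VEH_miR-7a replicates 2 to 4 stood apart with 35.3% to 38.8% and 1207626 to 2452624 counts. Of 15 microglial and macrophage markers, 12 reached a mean of 1 CPM, among them Cd68 (1002 CPM) and Csf1r (636 CPM). Of those that mark microglia in the brain, P2ry12 (5.39 CPM) and Tmem119 (2.94 CPM) reached it, whereas Sall1 (0.0566 CPM), C1qa (0.588 CPM) and Cx3cr1 (0.784 CPM) did not. The summed level of the 15 markers ran from 3183 to 4203 CPM in LPS_scramble and from 4053 to 6223 CPM in VEH_scramble. The T-cell list of 7 genes summed to 1.08 to 13.4 CPM, with Cd4 (2.79 CPM), Lck (2.76 CPM) and Cd2 (1.11 CPM) the highest in the mean, and with Cd3e and Cd3g at 0 in 31 of 32 libraries and Cd3d and Cd8a at 0 in 21. The natural killer list summed to at most 0.446 CPM and the B-cell list to at most 3.14 CPM. The dendritic cell list rested on Zbtb46 (31.2 CPM), with Flt3, Xcr1, Siglech and Ccr7 at 0.0554 to 0.139 CPM in the mean. Astrocyte, neuronal, endothelial and fibroblast lists summed to at most 1.63, 1.78, 3.46 and 1.34 CPM, and the oligodendrocyte list to at most 16.1 CPM.

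Per kilobase of exon and over the 32 libraries, the most abundant members were Cd86 (18.4 CPM per kb), Cd274 (13.2 CPM per kb) and Icam1 (10.0 CPM per kb). Cd40 (7.70 CPM per kb) and Havcr2 (5.25 CPM per kb) followed. Slamf7 had no single place in this order, since it was 6 of 9 under vehicle (0.925 CPM per kb) and 3 of 9 under LPS (11.5 CPM per kb, above the 8.84 CPM per kb of Icam1). Lag3 (0.781 CPM per kb), Pdcd1lg2 (0.688 CPM per kb) and Cd80 (0.322 CPM per kb) were scarce and lay at or under the level of 3 counts in 9, 6 and 10 of 32 libraries. Of the ligands of Cd28 and Ctla4, Cd86 was thus abundant and Cd80 scarce, and of the ligands of PD-1, Cd274 was abundant and Pdcd1lg2 scarce. When the 8 groups were ordered by mean CPM for each member, the ranges of neighbouring groups overlapped in 60 of 63 neighbouring pairs and lay apart in 3, beside 1.83% of neighbouring pairs apart over the 11200 genes with a mean of at least 1 CPM. The 3 exceptions were the step from LPS_miR-29a to VEH_miR-7a for Slamf7, from LPS_miR-7a to VEH_miR-7a for Lag3 and from VEH_miR-7a to VEH_miR-146a for Havcr2.

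**Figure D1:**
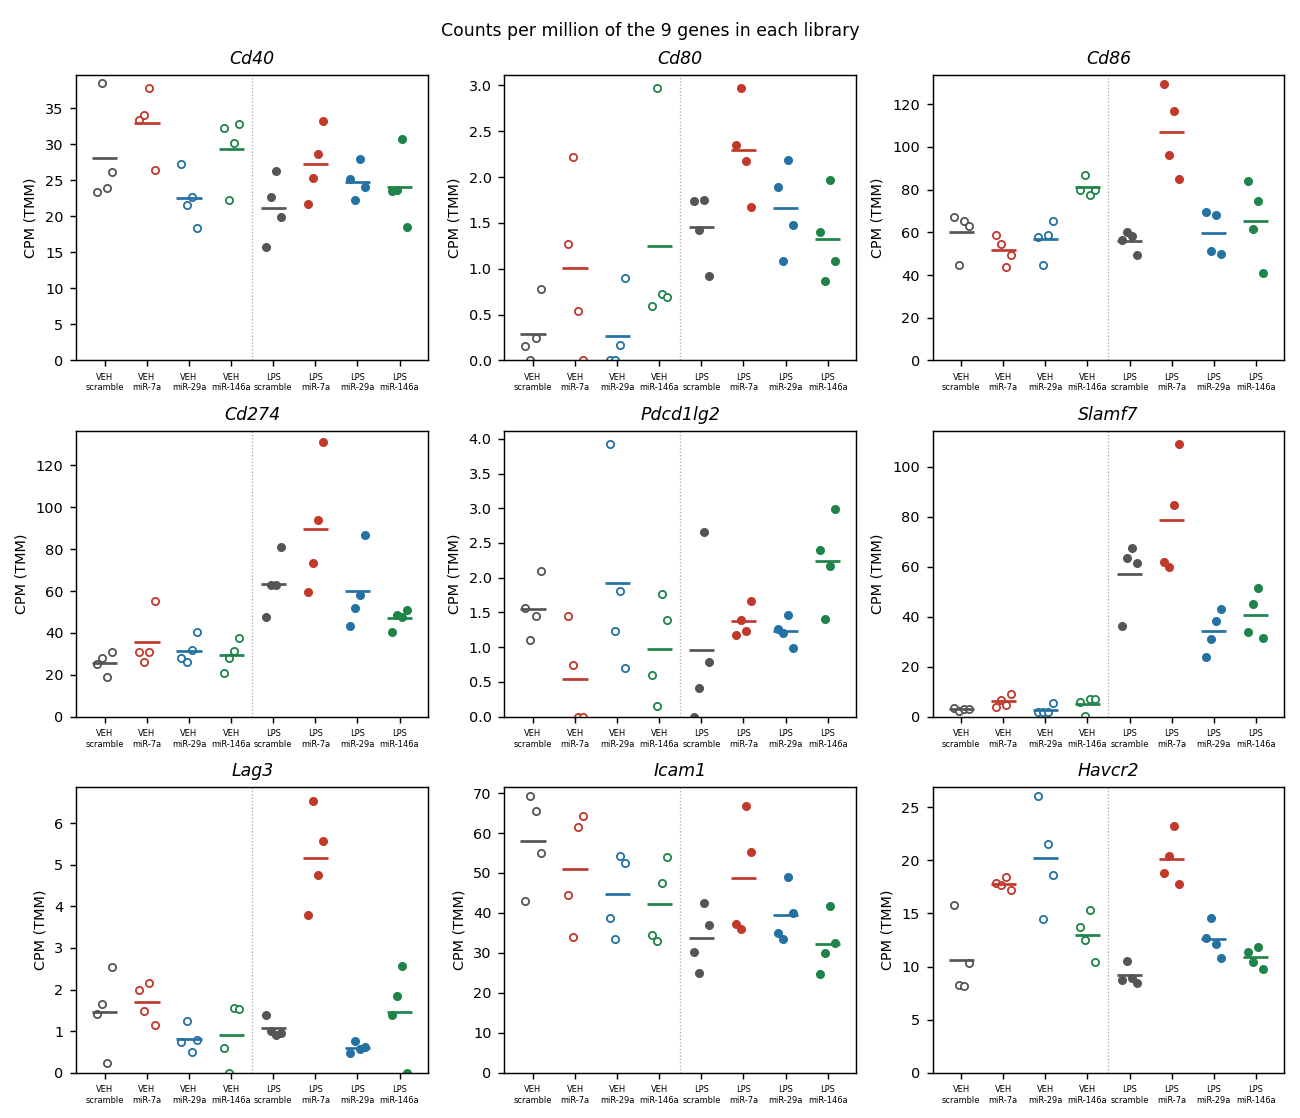
CPM (vertical axes, linear and starting at 0, scaled with TMM factors over all 32 libraries) of each of the 9 genes, with 1 point per library (open for vehicle, filled for LPS) and a bar at each group's mean. Slamf7 stood at 24.0 to 109 CPM in the LPS libraries and at 0.446 to 9.19 CPM in the vehicle libraries, and Lag3 reached 3.79 to 6.54 CPM in LPS_miR-7a against at most 2.56 CPM in the other 7 groups.

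The effect of LPS without any mimic was read from LPS_scramble against VEH_scramble. Slamf7 rose 18.4-fold and Cd274 2.39-fold under LPS, whereas Icam1 fell to 0.568 of its vehicle level. These were 3 of the 8 members that passed the filter on low counts, 2 higher and 1 lower, beside 18.2% of the 11932 genes tested (9.65% higher and 8.55% lower). The call rule here and below was an adjusted p under 0.05 in limma's voom test, with Benjamini-Hochberg adjustment over all genes tested. The number of cells and the RNA per cell cannot be told apart in these bulk libraries, and the depth and the structural RNA share given above moved with LPS as well. Of the marker lists, the macrophage sums overlapped between these groups, whereas 3 other lists did not. The T-cell list summed to 6.56 to 7.97 CPM in LPS_scramble and 3.59 to 6.30 CPM in VEH_scramble, the dendritic cell list to 27.2 against 37.7 CPM in the mean, and the oligodendrocyte list to 3.85 to 5.35 against 5.79 to 7.96 CPM. The part of any of these in the differences was not tested.

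Slamf7, the SLAM family receptor that couples to activation in macrophages, stood at 3.28, 2.20, 2.90 and 3.09 CPM in VEH_scramble replicates 1 to 4 and at 36.3, 63.6, 67.5 and 61.4 CPM in LPS_scramble. Its means were 2.87 ± 0.473 and 57.2 ± 14.2 CPM (SD, n = 4), and the groups were far apart, with the lowest LPS library above the highest vehicle library. The log2 fold change was 4.20 (SE 0.30, adjusted p = 1.36e-05, limma), with a 95% interval of 3.54 to 4.86.

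Cd274, the main PD-1 ligand, stood at 25.2, 27.8, 18.8 and 30.9 CPM in VEH_scramble and at 47.4, 63.1, 63.1 and 80.9 CPM in LPS_scramble. The means were 25.7 ± 5.14 and 63.6 ± 13.7 CPM (SD, n = 4), and the groups did not overlap. The log2 fold change was 1.25 (SE 0.20, adjusted p = 0.00143, limma). Its neighbour Pdcd1lg2, the second PD-1 ligand, was called in neither direction, at 1.10 to 2.10 CPM in VEH_scramble and 0 to 2.66 CPM in LPS_scramble (log2 fold change −1.18, SE 0.62, adjusted p = 0.199, limma). It overlaps the antisense gene A930007I19Rik, which at 14.3 CPM in the mean over all libraries was above the 1.35 CPM of Pdcd1lg2, and since the strand setting of the counting is not given in the sources used here, its counts are uncertain. Cd274 and Icam1 overlap the annotated antisense genes AC119228.1 and Gm47079, which were not analysed here.

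Icam1, the adhesion molecule of the contact with T cells and leukocytes, stood at 43.0, 69.3, 65.4 and 54.9 CPM in VEH_scramble and at 30.3, 25.1, 42.4 and 36.9 CPM in LPS_scramble. All 4 LPS libraries lay below all 4 vehicle libraries, though the highest LPS library (42.4 CPM) lay just below the lowest vehicle library (43.0 CPM). The log2 fold change was −0.82 (SE 0.21, adjusted p = 0.0204, limma). The call was lost without LPS_scramble replicate 2 (−0.66, adjusted p = 0.0558, limma), without VEH_scramble replicate 3 (−0.75, adjusted p = 0.0575) and without VEH_scramble replicate 4 (−0.83, adjusted p = 0.0507).

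The costimulatory ligand Cd86 differed little, with 44.5 to 67.4 CPM in VEH_scramble and 49.5 to 60.3 CPM in LPS_scramble and a log2 fold change of −0.15 (95% interval −0.49 to 0.19, adjusted p = 0.528, limma). Its relative Cd80 did not pass the filter on low counts, with 0.156, 0, 0.241 and 0.774 CPM in VEH_scramble, of which 3 lay at or under 3 counts, and 1.74, 1.42, 1.75 and 0.923 CPM in LPS_scramble. The groups did not overlap, and the difference of 1.37 in log2(CPM + 0.5) had the smallest p that 4 against 4 libraries allow (two-sided exact permutation test, p = 0.0286, 1 of 15 such tests of members below the filter, unadjusted). Cd80 was called without the filter (log2 fold change 2.01, adjusted p = 0.0371, limma) and with all 8 groups in one fit (1.93, adjusted p = 0.0202). In that fit libraries of all 8 groups counted toward the filter, which this pair of groups alone did not pass, so that call is no support.

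Cd40, the receptor for the T-cell signal, was at 23.4 to 38.5 CPM in VEH_scramble and 15.7 to 26.3 CPM in LPS_scramble (log2 fold change −0.38, 95% interval −0.82 to 0.06, adjusted p = 0.205, limma). The inhibitory receptors Lag3 (0.241 to 2.54 against 0.909 to 1.39 CPM) and Havcr2 (8.21 to 15.8 against 8.49 to 10.5 CPM) overlapped between vehicle and LPS. Their log2 fold changes were −0.46 (adjusted p = 0.556) and −0.27 (adjusted p = 0.416) in limma.

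The same LPS contrast was made within each mimic, where LPS_miR-7a was compared with VEH_miR-7a, and so on, with vehicle and LPS libraries of its own each time. Slamf7 rose in each of these 3 contrasts. Cd274 rose with miR-7a and miR-29a and was higher without a call with miR-146a, Cd86 rose with miR-7a, and Havcr2 fell with miR-29a. The marker lists whose sums did not overlap between vehicle and LPS in these contrasts are given here, and the sums of the other lists overlapped. With miR-29a the macrophage list summed to 4018 to 4642 CPM under vehicle and 2546 to 3437 CPM under LPS, the dendritic cell list to 27.5 to 39.9 and 21.4 to 27.4 CPM, and the oligodendrocyte list to 7.24 and 4.91 CPM in the mean. With miR-7a the T-cell list summed to 1.08 to 7.60 CPM under vehicle and 7.83 to 13.4 CPM under LPS, and with miR-146a the endothelial list to 0 to 0.623 and 0.814 to 1.48 CPM. The endothelial sums lay near the level of 3 counts, which was worth 0.310 to 1.80 CPM in VEH_miR-146a. The part of any of these lists in these changes was not tested.

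Slamf7 stood at 3.80, 6.65, 4.86 and 9.19 CPM in VEH_miR-7a and at 61.8, 60.0, 84.6 and 109 CPM in LPS_miR-7a (log2 fold change 3.82, SE 0.43, adjusted p = 3.21e-04, limma). With miR-29a it stood at 1.96, 1.85, 1.81 and 5.56 CPM under vehicle and at 24.0, 31.1, 38.3 and 43.0 CPM under LPS (3.51, SE 0.39, adjusted p = 7.06e-05). With miR-146a it stood at 5.96, 0.446, 6.96 and 7.22 CPM under vehicle and at 33.9, 45.0, 51.5 and 31.5 CPM under LPS (3.49, SE 0.58, adjusted p = 0.00348). The vehicle and LPS libraries were far apart in each, and VEH_miR-146a replicate 2, with 3 counts, was the lowest of all 32 libraries and the 1 of its group below the filter's level of 1.28 CPM. Without that library the log2 fold change with miR-146a was 2.51 (adjusted p = 0.00113, limma). The LPS change of Slamf7 was not shown to differ between mimic and scramble cells, with interaction terms of −0.43 (SE 0.54, miR-7a), −0.70 (SE 0.51, miR-29a) and −0.73 (SE 0.76, miR-146a) and adjusted p from 0.721 to 0.956 in limma.

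Cd274 stood at 31.0, 25.9, 30.8 and 55.1 CPM in VEH_miR-7a and at 59.5, 73.5, 93.8 and 131 CPM in LPS_miR-7a (log2 fold change 1.29, SE 0.30, adjusted p = 0.0217, limma). The groups did not overlap, but the call was lost without any 1 of VEH_miR-7a replicates 1 (1.16, adjusted p = 0.0878), 2 (1.23, adjusted p = 0.0635) and 3 (1.28, adjusted p = 0.0612) or LPS_miR-7a replicate 3 (1.25, adjusted p = 0.0523). With miR-29a, Cd274 stood at 28.2, 25.9, 31.9 and 40.3 CPM under vehicle and at 43.5, 52.0, 58.1 and 86.6 CPM under LPS (0.82, SE 0.22, adjusted p = 0.0159, limma). With miR-146a it stood at 20.8, 27.8, 31.5 and 37.8 CPM under vehicle and at 40.6, 48.5, 47.7 and 51.0 CPM under LPS, again without overlap, and was not called (0.56, SE 0.17, adjusted p = 0.0828, limma), whereas DESeq2 called it (0.61, adjusted p = 0.0274). The interaction term was −0.69 for miR-146a (95% interval −1.24 to −0.15, adjusted p = 0.381, limma) and nearer 0 for miR-7a (0.03) and miR-29a (−0.42).

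Cd86 stood at 58.8, 54.7, 43.8 and 49.4 CPM in VEH_miR-7a and at 129.5, 96.3, 117 and 85.2 CPM in LPS_miR-7a. All 4 LPS libraries were above all 4 vehicle libraries, and the log2 fold change was 0.86 (SE 0.18, adjusted p = 0.0152, limma), which was lost without VEH_miR-7a replicate 3 (0.80, adjusted p = 0.0584). Lag3 lay higher without overlap in LPS_miR-7a (3.79 to 6.54 CPM) than in VEH_miR-7a (1.15 to 2.16 CPM, 2 libraries at or under 3 counts), without a call (1.23, SE 0.41, adjusted p = 0.104, limma). It was called without the filter on low counts (1.27, adjusted p = 0.0395), in a fit that called 7727 genes. In the filtered fit it was tested through the LPS libraries alone, with 2 vehicle libraries at the filter's level of 1.69 CPM. For Cd86 the other mimics gave log2 fold changes under LPS of 0.01 (miR-29a, adjusted p = 0.973) and −0.34 (miR-146a, adjusted p = 0.360). The interaction of miR-7a and LPS on Cd86 was 1.04 (SE 0.23, 95% interval 0.54 to 1.53, adjusted p = 0.152, limma), so the call was missed after adjustment, while DESeq2 gave 1.06 (adjusted p = 0.00678).

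Havcr2 stood at 26.0, 14.5, 21.5 and 18.6 CPM in VEH_miR-29a and at 12.7, 14.6, 12.1 and 10.8 CPM in LPS_miR-29a. The ranges met at 14.5 and 14.6 CPM, and the log2 fold change was −0.69 (SE 0.19, adjusted p = 0.0187, limma), which was lost without VEH_miR-29a replicate 3 (−0.65, adjusted p = 0.0617) and without the filter on low counts (−0.65, adjusted p = 0.0536). Cd80 did not pass the filter in this contrast, with 0, 0, 0.164 and 0.894 CPM under vehicle and 1.89, 1.08, 2.19 and 1.48 CPM under LPS. The groups did not overlap (difference of 1.61 in log2(CPM + 0.5), two-sided exact permutation test, p = 0.0286, the smallest possible), and without the filter Cd80 was called (log2 fold change 2.67, adjusted p = 0.00593, limma). Icam1, which fell in scramble cells, was lower in the mean under LPS with each mimic but was called with none. It stood at 51.1 ± 14.4 CPM in VEH_miR-7a and 48.8 ± 14.8 CPM in LPS_miR-7a (SD, n = 4; log2 fold change −0.15, adjusted p = 0.806, limma), at 44.7 ± 10.2 and 39.4 ± 6.94 CPM with miR-29a (−0.24, adjusted p = 0.363), and at 42.2 ± 10.2 and 32.3 ± 7.12 CPM with miR-146a (−0.47, adjusted p = 0.240). The ranges overlapped in each, and the interaction terms of 0.67, 0.59 and 0.34 were not called, so its change was not shown to differ from that in scramble cells. Havcr2 gave 0.03 with miR-7a and −0.25 with miR-146a, and the scarce Cd80 gave 0.82 with miR-7a and Pdcd1lg2 and Lag3 1.20 and 0.93 with miR-146a, all without a call. For these scarce genes the vehicle group alone would not have passed the filter, so their directions are no support. The other 4 exact permutation tests of members below the filter in LPS contrasts with a mimic gave p from 0.114 to 0.629.

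In counts, LPS against vehicle called 3 of 8 members tested with miR-7a, all higher, beside 6.91% of 11315 genes (2.66% higher and 4.25% lower). It called 3 of 6 with miR-29a, 2 higher and 1 lower, beside 26.6% of 11908 genes (13.4% higher and 13.2% lower), and 1 of 8 with miR-146a, higher, beside 4.62% of 11707 genes (2.97% higher and 1.65% lower). That 1 was Slamf7, whose vehicle group alone would not have passed the filter. Of the 5 members whose lower group passed by itself, 0 were called with miR-146a, so this count is no support for a direction. The 3 structural RNA-rich libraries were all in VEH_miR-7a, and their part in the miR-7a contrast was not tested beyond the values without each of them. With small structural RNA genes left out of the table the same number of members, 3, was called in that contrast. In each of the 4 LPS contrasts Cd40 was not called, with log2 fold changes from −0.43 to 0.15.

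**Figure D2:**
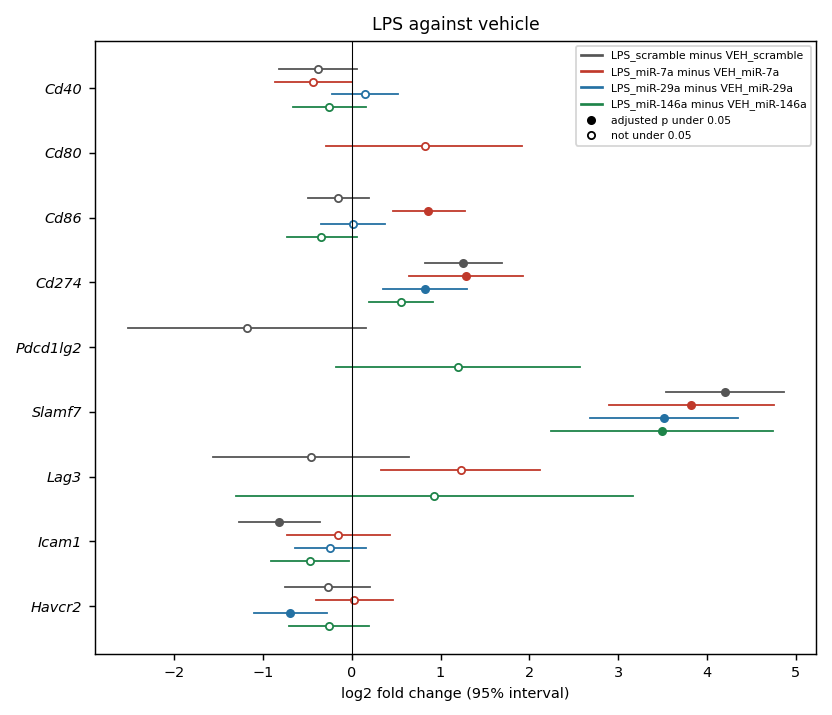
Log2 fold change under LPS (horizontal axis, point and 95% interval from limma) for each member that passed the filter, in scramble cells and with each of the 3 mimics, with filled points at adjusted p under 0.05. Slamf7 lay at 3.49 to 4.20 in the 4 contrasts and Cd274 at 0.56 to 1.29, whereas the intervals of Cd40 reached or crossed 0.

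The genes around these molecules were read from 6 lists, and 55 of their genes passed the filter in LPS_scramble against VEH_scramble, with 14 higher and 5 lower. The counts below are to be read beside the 9.65% of all genes that were higher and the 8.55% that were lower in this contrast. Of these 14, Slamf9, Slamf6 and Traf1 passed the filter through the LPS libraries alone, since fewer than 4 vehicle libraries reached its level of 1.3 CPM, and their counts are no support for a direction. The SLAM family and its adaptors had 4 of 7 genes higher and 0 lower, but for 4 of the 7 the lower group would not have passed the filter by itself, and of the other 3 genes 2 were higher. Fyb, an adaptor downstream of SLAM and integrin receptors, went from 99.4 ± 30.7 to 432 ± 115 CPM (SD, n = 4; log2 fold change 2.07, adjusted p = 2.71e-04, limma). Ly9, another SLAM receptor, went from 21.7 ± 3.91 to 60.5 ± 7.89 CPM (1.43, adjusted p = 2.81e-04), and these are the 2. The scarce Slamf9 stood at 1.12 ± 1.00 and 5.44 ± 1.45 CPM, and Slamf6 at 1.33 ± 0.847 and 2.93 ± 0.830 CPM, in VEH_scramble and LPS_scramble.

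Among 12 other checkpoint ligands and receptors, 2 rose and 2 fell, with a median log2 fold change of −0.03 beside 0.01 over all genes tested. Lgals9, a galectin that binds Havcr2, rose from 37.4 ± 8.02 to 113 ± 12.2 CPM (SD, n = 4; log2 fold change 1.57, adjusted p = 2.54e-04, limma), and Cd47, the signal that blocks engulfment, rose from 86.3 ± 13.6 to 176 ± 17.5 CPM (0.98, adjusted p = 0.00129). Its receptor Sirpa fell (−0.73, adjusted p = 0.00400), as did Lgals3 (−1.02, adjusted p = 0.00226), a galectin that binds Lag3.

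Of 12 other costimulatory ligands, receptors and adhesion partners, 1 rose and 1 fell, with a median of −0.09. Cd83, a surface marker of activated antigen-presenting cells, fell from 256 ± 60.6 to 62.6 ± 17.2 CPM (SD, n = 4; log2 fold change −2.13, adjusted p = 1.55e-04, limma). Itgam, an integrin chain that pairs with Itgb2 and binds Icam1, rose (0.54, adjusted p = 0.0399), whereas with miR-29a it fell under LPS, from 186 ± 23.7 to 147 ± 4.37 CPM (−0.37, SE 0.12, adjusted p = 0.0425, limma). The interaction of miR-29a and LPS called 0 listed genes, so these 2 changes were not shown to differ.

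In CD40 signalling 3 of 10 genes rose and 1 fell, leaving aside the adaptor Traf1, which passed the filter through the LPS libraries alone (0.609 ± 0.548 CPM in VEH_scramble and 3.54 ± 1.24 CPM in LPS_scramble). Tnfaip3, the deubiquitinase that restrains NF-kappa-B, rose from 54.8 ± 2.18 to 126 ± 16.1 CPM (SD, n = 4; log2 fold change 1.14, adjusted p = 3.05e-04, limma), and the adaptor Traf6 (0.73, adjusted p = 0.0254) and the ubiquitin ligase Birc3 (0.77, adjusted p = 0.00836) rose too. Traf5, another adaptor, fell (−1.24, adjusted p = 7.94e-04). Of 4 tested genes of antigen presentation by MHC class II, Cd74, the invariant chain, fell from 528 ± 157 to 223 ± 67.9 CPM (−1.31, adjusted p = 0.00549) and the others were not called. Of 9 interferon-gamma response regulators 3 rose and 0 fell, with a median of 0.18, namely Irf9 (1.46), Stat2 (0.84) and the kinase Jak2 (0.94), with adjusted p from 2.64e-04 to 0.0188 in limma.

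Across the mimics under LPS against vehicle, 8 rose and 6 fell of 57 listed genes tested with miR-7a, 17 rose and 11 fell of 59 with miR-29a, and 9 rose and 4 fell of 57 with miR-146a. Over all genes these shares were 2.66% higher and 4.25% lower, 13.4% and 13.2%, and 2.97% and 1.65%. Of those that rose, Vcam1 and Slamf9 with miR-7a and Slamf6, Siglece and Traf1 with miR-29a passed the filter through the LPS libraries alone. Cd83 fell in all 3 (log2 fold changes −1.41, −2.83 and −1.32 in that order, adjusted p of at most 0.00999, limma). Lgals9 rose in all 3 (1.89, 1.21 and 1.70), and so did Fyb (1.28, 1.83 and 1.06). Cd28, the receptor for Cd80 and Cd86, was itself abundant in BV-2 and fell with miR-29a from 819 ± 76.9 to 347 ± 46.1 CPM (SD, n = 4; −1.28, adjusted p = 5.93e-05, limma) and with miR-7a from 607 ± 86.8 to 430.2 ± 77.7 CPM (−0.66, adjusted p = 0.0354). In scramble cells Cd28 was lower without a call (−0.53, adjusted p = 0.0503, limma). The interactions of miR-7a and of miR-29a with LPS called 0 listed genes, so these changes were not shown to differ.

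**Figure D3:**
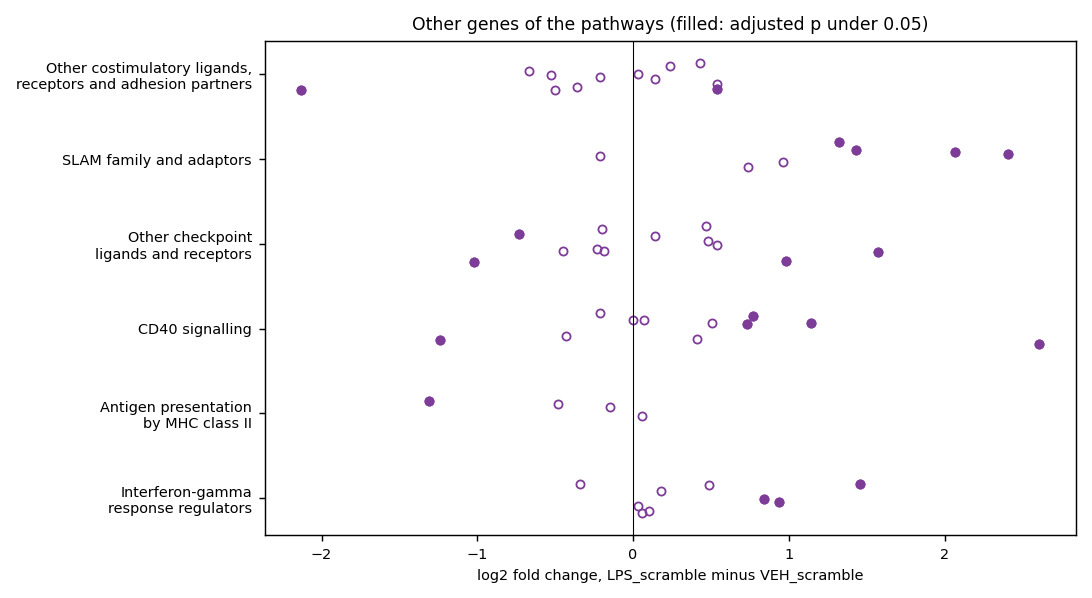
Log2 fold change of LPS_scramble minus VEH_scramble (horizontal axis) for each tested gene of the 6 lists (rows, points spread vertically only for legibility), with filled points at adjusted p under 0.05. The SLAM row has 4 filled points between 1.32 and 2.41, and the lowest filled point is Cd83 at −2.13.

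The effect of each mimic under LPS was read against LPS_scramble, and these 3 comparisons share the same 4 scramble libraries. With miR-7a, the inhibitory receptors Lag3 and Havcr2 and the costimulatory ligand Cd86 rose 4.93-fold, 2.17-fold and 1.87-fold. These were 3 of 9 members tested, all higher, beside 2.81% of 12699 genes tested (1.63% higher and 1.18% lower). For each of the other mimics, miR-29a and then miR-146a, limma called 0 of 9 members, beside 4.82% of 12950 genes (2.22% higher and 2.60% lower) and 2.48% of 12240 genes (0.833% higher and 1.64% lower).

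Lag3, a CD4-like receptor for MHC class II, stood at 1.39, 1.01, 0.909 and 0.969 CPM in LPS_scramble and at 3.79, 6.54, 4.74 and 5.58 CPM in LPS_miR-7a. All 4 mimic libraries lay above all scramble libraries, with 29 to 70 counts against 4 to 21. The means were 1.07 ± 0.220 and 5.16 ± 1.18 CPM (SD, n = 4), and the log2 fold change was 2.30 (SE 0.27, 95% interval 1.72 to 2.88, adjusted p = 0.00217, limma). The T-cell list summed to 7.83 to 13.4 CPM in LPS_miR-7a and 6.56 to 7.97 CPM in LPS_scramble, and the B-cell list to 0.155 to 0.478 against 0.508 to 3.14 CPM, and their part in the Lag3 difference was not tested.

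Havcr2 stood at 8.72, 10.5, 8.95 and 8.49 CPM in LPS_scramble and at 18.8, 20.4, 23.2 and 17.8 CPM in LPS_miR-7a. The groups did not overlap, at means of 9.16 ± 0.899 and 20.1 ± 2.37 CPM (SD, n = 4). The log2 fold change was 1.12 (SE 0.15, 95% interval 0.78 to 1.45, adjusted p = 0.00495, limma).

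Cd86 stood at 56.5, 60.3, 58.1 and 49.5 CPM in LPS_scramble and at 129.5, 96.3, 117 and 85.2 CPM in LPS_miR-7a. The groups did not overlap, at means of 56.1 ± 4.66 and 107 ± 19.9 CPM (SD, n = 4). The log2 fold change was 0.91 (SE 0.15, 95% interval 0.57 to 1.24, adjusted p = 0.0124, limma), and without LPS_scramble replicate 4 it was 0.83 (adjusted p = 0.0647). None of these 3 genes held a match to the miR-7a seed in its 3′ untranslated region, as given above.

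The other 6 members were not called with miR-7a under LPS, and each of their log2 fold changes was above 0, from 0.32 for Cd40 to 0.88 for Pdcd1lg2. Pdcd1lg2 passed the filter through the mimic libraries alone, since fewer than 4 scramble libraries reached the level of 0.859 CPM. Its sign is therefore no support. Without it the highest was 0.73, for Cd80, beside a median of 0.01 over all genes tested. Same-numbered libraries deviated together here, and with the replicate number as a block Cd274 (0.47, adjusted p = 0.0252, limma) and Icam1 (0.54, adjusted p = 0.0125) were called as well, which made 5 of 9, beside 9.71% of all genes in that fit. Without the block their log2 fold changes were 0.41 (adjusted p = 0.379) and 0.50 (adjusted p = 0.279). Cd274 stood at 59.5, 73.5, 93.8 and 131 CPM in LPS_miR-7a and at 47.4, 63.1, 63.1 and 80.9 CPM in LPS_scramble, higher in each of the 4 numbered pairs although the ranges overlapped. Icam1 stood at 37.2, 36.0, 66.7 and 55.2 CPM against 30.3, 25.1, 42.4 and 36.9 CPM, also higher in each pair.

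With miR-29a under LPS, Slamf7 stood at 24.0, 31.1, 38.3 and 43.0 CPM against 36.3, 63.6, 67.5 and 61.4 CPM in LPS_scramble. It was lower in each numbered pair, but 2 mimic libraries lay above the lowest scramble library. The log2 fold change was −0.77 (SE 0.20, 95% interval −1.22 to −0.33, adjusted p = 0.0507, limma), just short of the threshold, and with the replicate block it was −0.75 (adjusted p = 0.00469), beside 10.9% of all genes called in that fit. At an unadjusted p under 0.05 limma gave 2 of 9 members, Slamf7 and Havcr2, beside 21.4% of all genes, so that this count was near the background. EdgeR called 0 and DESeq2 called 1, Slamf7 (−0.75, adjusted p = 0.0139).

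Havcr2 stood at 12.7, 14.6, 12.1 and 10.8 CPM in LPS_miR-29a, all above the 8.49 to 10.5 CPM of LPS_scramble, and was not called (0.48, SE 0.16, adjusted p = 0.101, limma). Lag3 lay lower without overlap, at 0.472 to 0.764 CPM in LPS_miR-29a against 0.909 to 1.39 CPM in LPS_scramble, and was not called either (−0.64, SE 0.33, adjusted p = 0.284, limma). With 1 mimic library at the filter's level of 0.741 CPM, Lag3 was tested only through the scramble libraries, where it is higher. The other members had log2 fold changes from −0.13 (Cd274) to 0.77 (Pdcd1lg2). Pdcd1lg2 passed the filter there only through the mimic libraries, so its direction is no support. Microglial and macrophage markers summed to 2546 to 3437 CPM in LPS_miR-29a and 3183 to 4203 CPM in LPS_scramble, and their part in these values was not tested.

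With miR-146a under LPS, Cd274 stood at 40.6, 48.5, 47.7 and 51.0 CPM against 47.4, 63.1, 63.1 and 80.9 CPM in LPS_scramble, lower in each numbered pair with overlapping ranges. Its log2 fold change was −0.49 (SE 0.15, adjusted p = 0.117, limma) and −0.43 with the replicate block (adjusted p = 0.0301). Slamf7 stood at 33.9, 45.0, 51.5 and 31.5 CPM (−0.54, SE 0.19, adjusted p = 0.167, limma, and −0.49 with the block, adjusted p = 0.0467). These 2 members were called in the blocked fit, beside 11.2% of all genes, while edgeR and DESeq2 without the block called 0 of 9, and 3 members had an unadjusted p under 0.05 in limma, beside 17.7% of all genes. Pdcd1lg2 was the third of these, at 1.41 to 2.99 CPM against 0 to 2.66 CPM (1.46, SE 0.61, adjusted p = 0.237, limma), and it passed the filter only through the mimic libraries, since 1 scramble library reached the level of 1.04 CPM. Its place in this count is therefore no support. Cd86, which holds the match to the miR-146a seed printed above, stood at 41.0 to 84.1 CPM against 49.5 to 60.3 CPM (0.24, 95% interval −0.16 to 0.63, adjusted p = 0.536, limma). The other members had log2 fold changes of 0.34 (Lag3), 0.26 (Havcr2), 0.17 (Cd40), 0.04 (Cd80) and −0.08 (Icam1), with adjusted p of at least 0.434.

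Of the listed genes under LPS, 1 rose and 1 fell of 65 tested with miR-7a, beside 2.81% of all genes called. Slamf8, a SLAM receptor of macrophages, rose from 1.66 ± 0.292 to 8.55 ± 2.19 CPM (SD, n = 4; log2 fold change 2.34, adjusted p = 0.00219, limma), and Tnfaip3 fell (−0.79, adjusted p = 0.0465). With miR-29a 3 rose and 7 fell of 66, beside 2.22% of all genes higher and 2.60% lower. Stat2 (1.37, adjusted p = 0.00185) and Jak2 (0.56, adjusted p = 0.0256), which carry interferon signals, were among those that rose. Ifi30, a thiol reductase of antigen processing, fell from 287 ± 55.1 to 112 ± 23.5 CPM (SD, n = 4; −1.34, adjusted p = 0.00245, limma), and Itgb2, a chain of the Icam1-binding integrins, fell from 218 ± 36.0 to 134 ± 16.7 CPM (−0.67, adjusted p = 0.0223). The other 5 that fell were Tnfrsf9 (−1.08), Vsir (−0.72), Lgals3 (−0.71), Cd84 (−0.51) and Ptdss1 (−0.48). With miR-146a 1 of 61 rose, the inhibitory adhesion receptor Ceacam1 (from 9.31 ± 0.844 to 20.8 ± 5.60 CPM, 1.12, adjusted p = 0.0258), and 0 fell, beside 2.48% of all genes called.

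**Figure D4:**
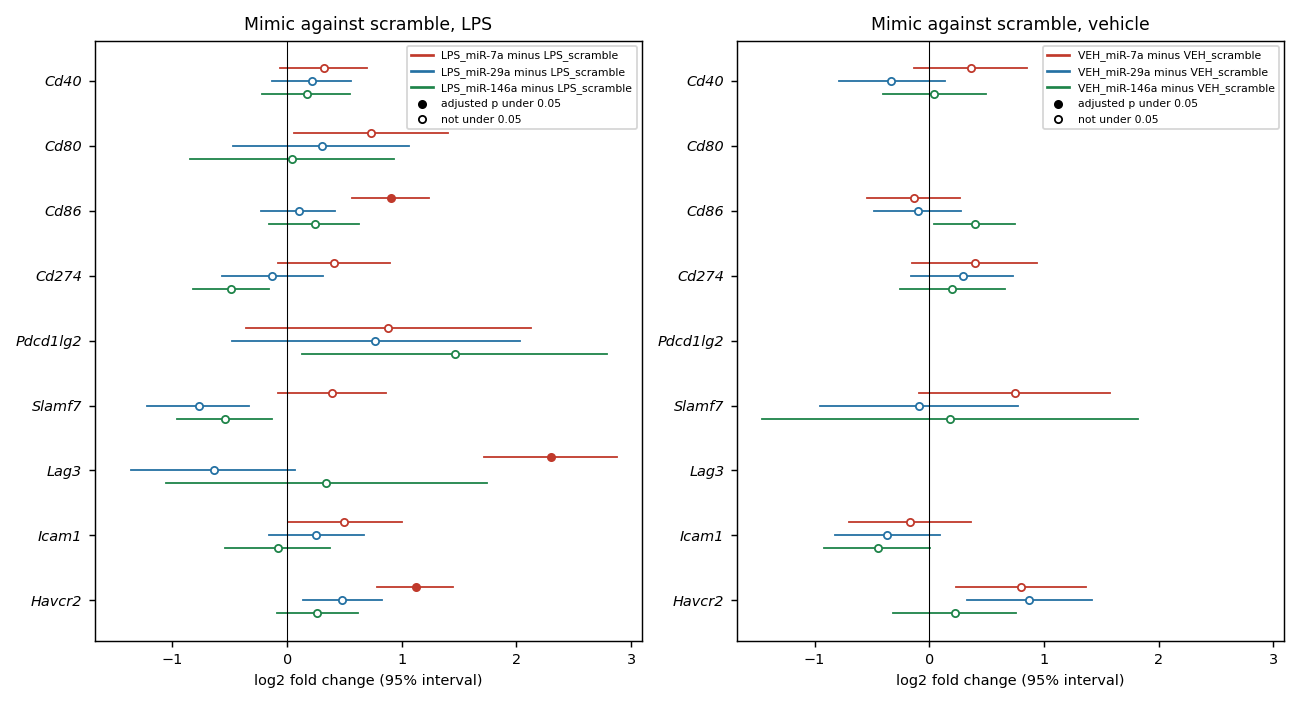
Log2 fold change of each mimic against scramble (horizontal axis, point and 95% interval from limma) under LPS on the left and vehicle on the right, for members that passed the filter, with filled points at adjusted p under 0.05. The 3 filled points are Lag3 at 2.30, Havcr2 at 1.12 and Cd86 at 0.91 in LPS_miR-7a minus LPS_scramble, and none is filled under vehicle.

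Under vehicle, each mimic was compared with the same 4 VEH_scramble libraries, and Cd80, Pdcd1lg2 and Lag3 did not pass the filter in these fits. Limma called 0 of the 6 members tested in each, beside 0.160% of 10594 genes with miR-7a (0.104% higher and 0.0566% lower), 0.00883% of 11325 genes with miR-29a (all lower) and 2.32% of 11373 genes with miR-146a (1.01% higher and 1.31% lower). In each comparison 1 of 6 members had an unadjusted p under 0.05 in limma, beside 12.6%, 10.4% and 25.3% of all genes in the same order, so that these counts were near or below the background, while edgeR and DESeq2 called 0 members.

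With miR-7a that member was Havcr2, at 17.9, 17.7, 18.4 and 17.2 CPM against 15.8, 8.25, 8.21 and 10.3 CPM in VEH_scramble. The groups did not overlap, though VEH_scramble replicate 1 lay close to the mimic libraries (log2 fold change 0.80, SE 0.26, 95% interval 0.23 to 1.37, adjusted p = 0.262, limma). Slamf7 was also higher in all 4 mimic libraries, at 3.80 to 9.19 CPM against 2.20 to 3.28 CPM, with 8 to 21 counts in the mimic libraries (0.75, SE 0.39, adjusted p = 0.453), and 3 of the 4 scramble libraries reached the filter's level of 2.39 CPM, so it passed through the mimic libraries alone. The mimic libraries held 1207626 to 5199941 counts against 3969266 to 9686104 in VEH_scramble and included the 3 structural RNA-rich libraries, and the part of either in these values was not tested.

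With miR-29a Havcr2 stood at 26.0, 14.5, 21.5 and 18.6 CPM, so that 3 of 4 mimic libraries lay above all scramble libraries. Each numbered pair was higher with the mimic (log2 fold change 0.87, SE 0.25, 95% interval 0.33 to 1.42, adjusted p = 0.290, limma), and the B-cell list summed to 0.986 to 1.72 CPM against 0.313 to 0.825 CPM, with its part not tested. It was called with the replicate block (0.89, adjusted p = 0.0440), as 1 of 6 members beside 0.698% of all genes in that fit, and with all 8 groups in one fit (0.87, adjusted p = 0.0212).

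With miR-146a Cd86 stood at 79.8, 87.1, 77.7 and 79.8 CPM against 67.4, 44.5, 65.2 and 63.2 CPM in VEH_scramble. All 4 mimic libraries were above all 4 scramble libraries, without a call (log2 fold change 0.40, SE 0.16, 95% interval 0.04 to 0.75, adjusted p = 0.157, limma). The members not yet given under vehicle were not called, with log2 fold changes in the order of mimics used above of 0.36, −0.33 and 0.04 for Cd40, of 0.40, 0.29 and 0.20 for Cd274 and of −0.17, −0.37 and −0.45 for Icam1. Cd86 gave −0.13 and −0.10 with miR-7a and miR-29a, Slamf7 −0.09 and 0.18 with miR-29a and miR-146a, and Havcr2 0.22 with miR-146a. The mimic miR-146a is the one whose seed matches the Cd86 site printed above. Of the 3 members below the filter, the 9 exact permutation tests under vehicle gave p from 0.0857 (Pdcd1lg2 with miR-7a) to 0.886, where 0.0286 was the smallest possible. Of 50 listed genes tested in each comparison, 1 was called with miR-146a, Alcam, an adhesion partner of the T-cell molecule Cd6 (from 99.9 ± 14.5 to 171 ± 22.8 CPM, 0.74, adjusted p = 0.0405, limma), beside 2.32% of all genes, and 0 with miR-7a and miR-29a.

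Whether a mimic acted differently with and without LPS was tested as an interaction. Limma called 0 of 9 members for miR-7a, 0 of 8 for miR-29a and 0 of 9 for miR-146a, beside 0.0697% (0.0261% higher and 0.0436% lower), 0.0168% (all lower) and 0% of all genes tested. At an unadjusted p under 0.05 these were 2 members for miR-7a (Cd86 and Lag3), 0 for miR-29a and 2 for miR-146a (Cd274 and Pdcd1lg2), beside 5.58%, 6.30% and 11.3% of all genes. EdgeR called 0 in each, and DESeq2 called 1 for miR-7a, Cd86, and 0 for the others. For miR-146a, limma and edgeR called 0 of all 11843 genes, 1341 genes had an unadjusted p under 0.05 in limma and DESeq2 called 20. The members' terms ran from −1.68 (Cd80) to 2.33 (Pdcd1lg2), both for miR-146a and both in scarce genes. For Lag3 and miR-7a the term was 1.69 (SE 0.64, adjusted p = 0.723, limma), so the rise of Lag3 with miR-7a under LPS was not shown to differ from that under vehicle, where Lag3 stood at 1.15 to 2.16 CPM with the mimic and 0.241 to 2.54 CPM with scramble. For Havcr2 and miR-7a it was 0.32 (95% interval −0.27 to 0.90, adjusted p = 0.941), with log2 fold changes of 1.12 under LPS and 0.80 under vehicle side by side.

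The genes whose 8 group means most resembled those of a member, by Pearson's r of log2(CPM + 0.5), are given as a description over 8 points for the 6 members that passed the filter in every comparison. For Slamf7 they were Mlx (0.989), Ebi3 (0.987) and Slc31a2 (0.986), and for Cd274 they were Pold3 (0.983), Nup93 (0.978) and the SLAM receptor Ly9 (0.976). For Cd86 they were Clec5a (0.966), Rnf4 (0.927) and Ogdh (0.913), and for Icam1 they were Cib1 (0.961), Mrpl20 (0.944) and Ilkap (0.931). For Havcr2 they were Efr3b (0.921), Celf2 (0.920) and Gm38082 (0.892), and for Cd40 they were Atp5j (0.929), Nip7 (0.919) and Minos1 (0.904). The 8 points share libraries and depth within each group, and no p was computed.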

How the data were processed

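Libraries were made by the authors with the CORALL total RNA-Seq kit after ribosomal RNA depletion and quantified with the nf-core rnaseq workflow on GRCm38. The deposited values were estimated counts per gene whose decimal marks had been lost (43.1% of values of 20000 or more ended in 001 or 999). The marks were restored by a model of each gene's level across libraries, which placed lost decimals in 28.7% of the 590874 values above 0. Genes with a value under a posterior of 0.9 (2.11% of values) were left out, and all values of the 9 members were above it. Restored counts were rounded. Of 45706 genes, 45143 matched GENCODE M21.

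As the authors state, each pair of groups was fitted alone after filterByExpr and TMM, with Benjamini-Hochberg adjustment. The model was limma 3.58.1 with voom (R 4.3.3), in place of the authors' own log transformation, and calls were made at an adjusted p under 0.05 with no minimum fold change. CPM used TMM factors over all 32 libraries. Scripts were tested on simulated data. Same-numbered libraries deviated together (every r above 0.1, from 0.12 to 0.46) in 6 of 10 pairs of groups, not in VEH_miR-7a or VEH_miR-146a against VEH_scramble, nor in LPS against VEH with either of these mimics. No libraries were identical. The p-values measure the spread between these replicates, and 3 counts were the floor, for counting error only. Alternatives were edgeR 4.0.16, DESeq2 1.42.0, its size factors, other filters and restorations, 1 fit of all groups, a replicate block and leaving out each library. The members were named in each comparison, in ranges where not called, at most 4 called genes per list by smallest adjusted p (or all of up to 5) were named, and genes most like a member were the 3 with the highest r among those with a mean of at least 5 CPM. The members and lists were chosen with earlier results of these data known. Some genes of the lists are not reported here by name.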

Additional observations from a re-analysis of the deposited data

Results flagged for a closer look

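Of 72 sets of 4 libraries (9 genes in 8 groups), 2 had 1 library apart from the other 3, where chance alone gives about 1 in 20, or 3.60 of 72. In VEH_miR-146a, Cd80 stood at 2.97 CPM in replicate 2 and at 0.596 to 0.727 CPM in the others, and that library held 20 counts of Cd80. In VEH_miR-29a, Slamf7 stood at 5.56 CPM in replicate 4 and at 1.81 to 1.96 CPM in the others, and without that library the log2 fold change of Slamf7 under LPS with miR-29a was 4.05 in place of 3.51.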

How the results depend on the processing

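Called values of members kept their direction and call in 211 re-computations, lost the call in 22 and turned in 1, which was Cd86 in LPS_miR-7a minus LPS_scramble, at −3.47 (adjusted p = 0.811, limma) with the values as deposited. Values not called became called in 19. These do not hold Cd80, which the reported fit of LPS minus VEH with miR-29a left out. Cd80 was called there with all 8 groups in one fit (2.42, adjusted p = 0.00403, limma). It was also called without VEH_miR-29a replicate 1 (2.13, adjusted p = 0.0423), 2 (2.29, adjusted p = 0.0328) or 3 (2.55, adjusted p = 0.0317). In these fits it passed the filter through groups where it is higher, so the calls are no support. With the values as deposited, where lost decimal marks multiply single values, 0 members were called in LPS_scramble minus VEH_scramble, in LPS_miR-7a minus LPS_scramble and in LPS minus VEH with miR-7a and miR-146a, and 1 with miR-29a. The number of members called in LPS_miR-29a minus LPS_scramble, 0 as reported, was 1 (Slamf7) under DESeq2, DESeq2 size factors, no filter on low counts, a posterior minimum of 0.99, without structural RNA genes and with the replicate block. DESeq2 called 2 members in LPS minus VEH with miR-146a and 1 in the interaction of miR-7a and LPS, and all 8 groups in one fit called 1 in VEH_miR-29a minus VEH_scramble. The causes were not tested.

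With the replicate block, 5 members were called in LPS_miR-7a minus LPS_scramble, 2 in LPS_miR-146a minus LPS_scramble and 1 in VEH_miR-29a minus VEH_scramble. Where the numbers did not pair the libraries, the block gave 2 in LPS minus VEH with miR-146a (Cd274 added, 0.62, adjusted p = 0.0391, limma) and 1 in the interaction of miR-7a and LPS (Cd86, 1.08, adjusted p = 0.0278), and beside Slamf7 above it changed no other call of a member. In LPS minus VEH with miR-146a every library correlated best with its own number, which is a hint from the data and not from the design. Leaving out 1 library at a time gave 2 to 3 members in LPS_scramble minus VEH_scramble and in LPS_miR-7a minus LPS_scramble, 0 to 1 in LPS_miR-29a minus LPS_scramble, 1 to 3, 3 to 4 and 1 to 1 in LPS minus VEH with miR-7a, miR-29a and miR-146a, and 0 in the others.

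Over all genes, the block called 1233, 1416 and 1366 in LPS_miR-7a, LPS_miR-29a and LPS_miR-146a against LPS_scramble (357, 624 and 303 as reported), 325, 79 and 871 for the mimics under vehicle in the same order (17, 1 and 264), 1665 and 834 in LPS minus VEH with miR-7a and miR-146a (782 and 541), and 39 and 14 in the interactions of miR-7a and miR-29a (8 and 2). In those orders DESeq2 called 775, 1030 and 666, then 233, 94 and 1193, then 1236 and 826, then 71 and 18, and 20 for miR-146a. Without a filter on low counts 7727 genes were called in LPS minus VEH with miR-7a, 35, 2 and 445 for the mimics under vehicle and 6 in the interaction of miR-29a. With all 8 groups in one fit, 172, 79 and 1492 were called under vehicle and 840 in LPS minus VEH with miR-146a. EdgeR called 195 in LPS_miR-146a minus LPS_scramble, 43 and 2 with miR-7a and miR-29a under vehicle and 13 in the interaction of miR-7a, and 46 were called with miR-7a under vehicle without structural RNA genes. As deposited, the LPS contrasts called 108, 265, 229 and 36 genes (scramble, miR-7a, miR-29a, miR-146a), and the mimics miR-7a, miR-29a and miR-146a called 35, 18 and 31 under LPS, 56, 22 and 21 under vehicle and 62, 6 and 13 as interactions. Leaving out 1 library gave 1110 to 2916, 424 to 833, 2158 to 3619 and 282 to 495 in the LPS contrasts, 64 to 389, 168 to 726 and 31 to 274 for the mimics under LPS, 7 to 241, 0 to 8 and 0 to 1218 under vehicle, and 6 to 130, 0 to 3 and 0 to 93 for the interactions.

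Cd80, Pdcd1lg2 and Lag3 were scarce and lay at or under 3 counts in 10, 6 and 9 of 32 libraries. The filter on low counts left them out of limma's fits of the mimics under vehicle. The parts of depth and of low expression in this were not tested.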
